A study of Mus musculus with 18 samples.

Results

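The effect of the knockout label on the mouse liver transcriptome was compared between 2 mouse lines. For each gene, the change from WT to KO in the H line was subtracted from the change from WT to KO in the BH line, (BH-KO minus BH-WT) minus (H-KO minus H-WT), and the difference is called the interaction here. All genes of the deposited count table entered. Of 52636 gene IDs, 23637 had no count in the 12 libraries of the contrast, and 13740 passed a minimum count and were tested. The 12 libraries, 3 in each of 4 groups, are part of a series of 18 liver RNA sequencing libraries. Total counts were 6846471 to 8757684 per library.

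All mice of the contrast were 10 weeks old. Per the labels, tamoxifen in corn oil (10 mg/mL) had been injected intraperitoneally on 5 days at an age of 8 weeks, WT groups included, and livers were taken at ZT8, the hour counted from lights on. Both lines carried Alb tm1(cre/ERT2)Mtz, a Cre recombinase that tamoxifen activates and that the albumin gene expresses in hepatocytes. H-WT and H-KO mice carried the conditional Hnf4a allele tm1.1Gonz. BH-WT and BH-KO mice carried that allele and the conditional Arntl allele tm1Weit. WT and KO mice of a line share 1 strain label, and the sources used here do not say how the WT mice differed. The lines differ in the Arntl allele and in any other background they do not share, and these cannot be told apart. The remaining 6 libraries, from older BH mice on a high-fat diet, were not part of the contrast.

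HNF4A is a nuclear receptor that hepatocytes need for the expression of many liver proteins, among them apolipoproteins, transporters and enzymes of drug metabolism. BMAL1, the product of Arntl, pairs with CLOCK or NPAS2 and activates genes through the E-box element. Among its targets are the Per and Cry repressors and the REV-ERB receptors, Nr1d1 and Nr1d2. REV-ERB and ROR receptors compete for the RORE element, through which REV-ERB represses Arntl, Npas2, Clock and Cry1, while DBP, TEF and HLF act on the D-box.

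The libraries differed in ways the labels do not give. Over 2208 genes that changed at least 2-fold in H-KO, BH-KO replicates 2 and 3 showed a median of 76.7% and 73.7% of the H-KO shift and BH-KO replicate 1 showed 11.3%. Hnf4a itself was at 927 CPM (counts scaled to a common library total, with TMM factors) in BH-KO replicate 1 and at 534 and 529 CPM in BH-KO replicates 2 and 3. It gave 858, 950 and 621 CPM in H-WT, 603, 702 and 594 in H-KO, and 844, 951 and 825 in BH-WT. Counts over a whole gene are a weak check of the labels, because a conditional deletion takes out only part of it. The interaction of Hnf4a was -0.04 ± 0.34 (adjusted p = 0.958). In H-WT replicate 3, Xist reached 1158 CPM, against 0.262 to 4.16 CPM in the other 11 libraries, the pattern of a female. The summed level of a macrophage marker list was 1875 CPM in BH-WT replicate 2 and 179 to 1094 CPM elsewhere. All 9 hepatocyte markers tested were detected in every group, with sums of 28540 to 38678 CPM in H-KO, 49330 to 106073 in BH-KO and 116449 to 154277 in the WT groups.

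The interaction passed in 490 genes, which is 3.57% of those tested. It was positive in 285 (2.07%) and negative in 205 (1.49%). Values are log2 differences ± SE, tested with the quasi-likelihood method of edgeR. The p-values were adjusted (Benjamini-Hochberg) across the tested genes, and a gene was called at an adjusted p under 0.05. The median absolute interaction of the called genes was 1.38 and the lowest 0.53, and 348 reached at least 2-fold. The KO effect alone passed in 4304 genes in the H line (31.3%, 1954 up and 2350 down) and in 3320 genes in the BH line (24.2%, 1672 up and 1648 down). The KO effect passed in 1 line alone for 4244 genes, yet the difference between the lines passed in 380 of these, 161 called in BH alone and 219 in H alone. Across the 13740 genes, which are not independent of each other, the KO effects of the lines had a Pearson correlation of 0.59, and of 0.68 without BH-KO replicate 1.

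The number of calls depended on single libraries. Without BH-KO replicate 1, 1041 of 14225 genes passed (7.32%), 560 positive (3.94%) and 481 negative (3.38%), and 485 of the 490 were among them. Leaving out any other library lowered the count. It was 364, 394 and 330 without BH-KO replicate 2, BH-KO replicate 3 or BH-WT replicate 1. It was 115, 119 and 163 without H-KO replicate 2, 3 or 1, 151 and 191 without BH-WT replicate 2 or 3, and 280, 172 and 283 without H-WT replicate 1, 2 or 3. In all 12 such fits the same 98 genes passed.

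**Figure D1:**
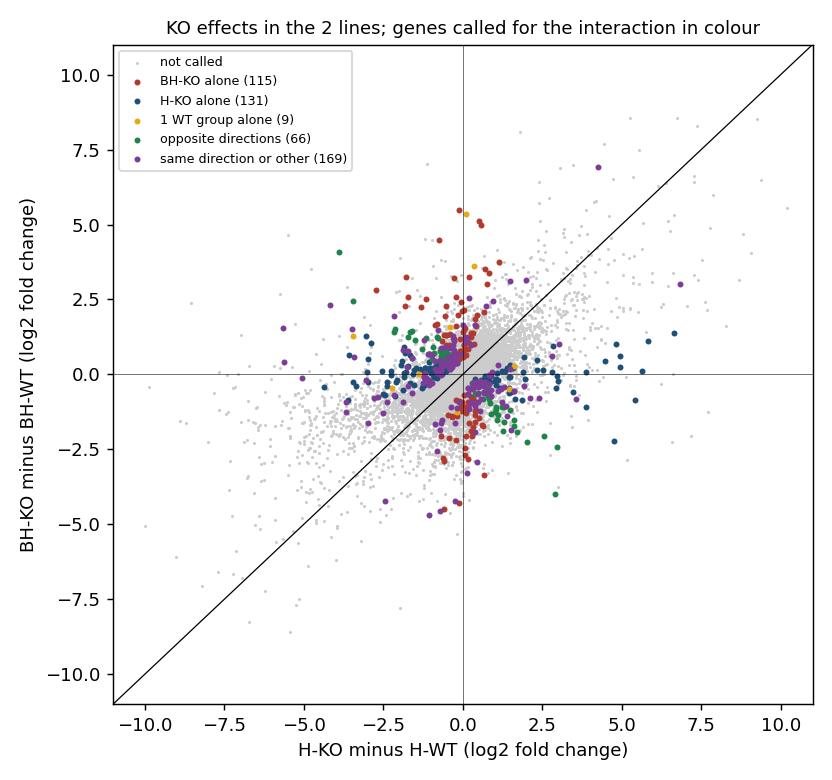
The log2 fold change from WT to KO in the BH line (vertical axis) is plotted against that in the H line (horizontal axis) for the tested genes, 1 point per gene, with 1 gene beyond the axes; the diagonal marks equal effects and coloured points are the 490 genes called for the interaction, with the number per class in the key. Genes in which BH-KO alone stood apart lie along the vertical axis and those in which H-KO alone stood apart along the horizontal axis.

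Each called gene was then assigned to the group that set it apart. On group means of log2(CPM + 1), a group was said to stand apart alone where its distance from the mean of the other 3 groups was at least 2 times the range of those 3. BH-KO stood apart alone in 115 of the 490 genes. It was high in 70 (14.3% of the called genes, against 5.73% of all tested genes) and low in 45 (9.18%, against 4%). H-KO stood apart alone in 131, high in 54 (11%, against 6.67%) and low in 77 (15.7%, against 5.66%). A WT group stood apart alone in 9 genes, BH-WT in 4 and H-WT in 5. With BH-WT high or low the shares were 0.204% and 0.612%, against 2.55% and 1.7% of tested genes. With H-WT high or low they were 0.612% and 0.408%, against 1.52% and 1.64%. The other genes, in which no group stood apart alone, were split by their KO effects. In 66 of these (13.5% of the called genes) the KO effects passed in both lines with opposite signs. Every tested gene of that class was called (66 genes, 0.48% of those tested). Effects of opposite sign add up in the interaction, so the class definition all but fixed the call. In 21 the KO effects passed with the same sign. In 13 the effect was larger in BH (2.65%, against 5.2% of tested genes) and in 8 larger in H (1.63%, against 6.31%). The remaining 148 genes met none of these descriptions (30.2%, against 58.6%). The 66 and 21 thus leave out genes in which a group stood apart alone. Over all 490 genes, the KO effect passed in both lines in 109. In these 148, the group farthest from the others was H-KO in 72, BH-KO in 50, H-WT in 15 and BH-WT in 11. The class depends on the ratio: at 3 times the range BH-KO stood apart in 66 genes and H-KO in 81, and at 1.5 times in 153 and 177. Over all classes, the 3 libraries of the farthest group did not overlap the other 9 in 421 of the 490 genes, against 3839 of the 13740 tested genes (27.9%).

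**Figure D2:**
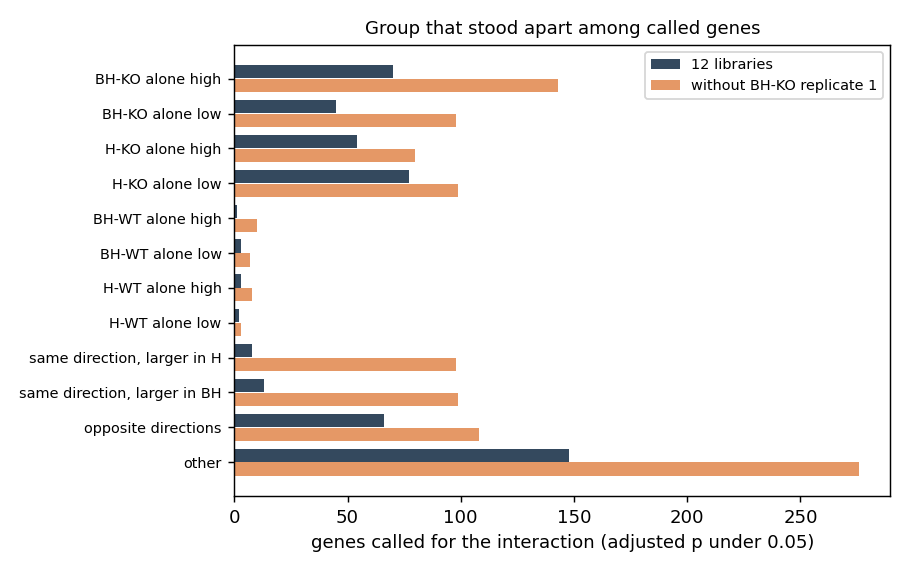
Bars give the number of genes called for the interaction in each class, with all 12 libraries (dark) and without BH-KO replicate 1 (orange), on a linear axis from 0. Without that library every class grew, and genes changed in the same direction but more in H went from 8 to 98.

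Clock genes were among the leading members of the BH-KO classes, and they were first counted as a list of clock activators. This list and those below were chosen with earlier results of these data known, so their shares only describe the lists. Of the 4 clock activator genes tested, the interaction was called positive in 2 (50%, against 3.57% of all tested genes called). Arntl (ENSMUSG00000055116, mm10 chromosome 7, 113207465 to 113314126) gave 2.56, 1.85 and 0.749 CPM in H-WT and 2.78, 2.19 and 2.71 in H-KO. It gave 0.45, 0.786 and 0.855 CPM in BH-WT and 18.6, 23.9 and 25.7 in BH-KO. All 3 BH-KO libraries, replicate 1 included, were above the other 9. The interaction was 4.44 ± 0.53 (adjusted p = 0.00274), from a rise of 5.00 ± 0.38 in BH and 0.57 ± 0.35 in H (adjusted p = 0.249). It passed in all 12 fits that left out 1 library.

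Clock, whose protein is the partner of BMAL1, was at 125, 94 and 97.3 CPM in BH-KO and at 32.4 to 58.1 CPM in the other 9 libraries. Its interaction was 1.48 ± 0.29 (adjusted p = 0.0223) and was lost in 4 of the 12 fits without 1 library. Npas2, the paralog of Clock, was at 51.2, 40.5 and 43.1 CPM in BH-KO and at or below 1.04 CPM in every other library. BH-WT held 3 counts of Npas2 in all and H-WT 4, and its interaction just missed the threshold (adjusted p = 0.0506, and 0.0388 without BH-KO replicate 1). Arntl2, the paralog of Arntl, did not pass (-1.17 ± 0.79, adjusted p = 0.415).

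Among 8 clock repressors, Cry1 was called positive and Per3, Bhlhe41 and Bhlhe40 negative (50%, against 3.57% of all tested genes). Cry1 (ENSMUSG00000020038, chromosome 10, 85131700 to 85185064), a cryptochrome that inhibits CLOCK and BMAL1, was at 90.1, 118 and 135 CPM in BH-KO. The other 9 libraries lay between 8.75 and 14.4 CPM, with no overlap. The interaction of Cry1 was 3.51 ± 0.28 (adjusted p = 0.000128), with a rise of 3.23 ± 0.20 in BH and a KO effect of -0.28 ± 0.20 in H (adjusted p = 0.307). Per3, a period protein, was at 9.69, 24.1 and 19.1 CPM in BH-KO and at 69 to 145 CPM elsewhere (interaction -2.99 ± 0.45, adjusted p = 0.00876). The interactions of Cry1 and Per3 passed in all 12 fits without 1 library. Bhlhe41 and Bhlhe40, which encode the repressors DEC2 and DEC1, gave -3.61 ± 0.75 (adjusted p = 0.0306) and -1.13 ± 0.27 (adjusted p = 0.0456), each lost in 10 of the 12 fits without 1 library. Bhlhe41 was at 2.07, 0.406 and 0.0941 CPM in BH-KO and at 5.41 to 6.81 CPM in H-KO, below both WT groups, where it was at 8.98 to 21.3 CPM. Per1 (-0.35 ± 0.32, adjusted p = 0.554), Per2 (0.09 ± 0.24, adjusted p = 0.86), Cry2 (0.11 ± 0.18, adjusted p = 0.769) and Ciart (-1.60 ± 0.61, adjusted p = 0.17) did not pass.

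Of the REV-ERB and ROR receptor genes, Nr1d1 and Nr1d2 were called negative and Rora positive. Nr1d1 (ENSMUSG00000020889, chromosome 11, 98767932 to 98775333), which encodes REV-ERB alpha, was at 7.47, 6.5 and 6.02 CPM in BH-KO. It was at 87.3, 109 and 134 CPM in H-WT, 74, 109 and 120 in H-KO, and 138, 119 and 130 in BH-WT. The 3 BH-KO libraries lay far below the other 9, which overlapped each other. The interaction of Nr1d1 was -4.16 ± 0.29 (adjusted p = 5.46e-05). Nr1d2, REV-ERB beta, was at 28, 24.7 and 30.8 CPM in BH-KO and at 117 to 235 elsewhere, with H-KO (117 to 144) below both WT groups (160 to 235). Its interaction was -2.29 ± 0.22 (adjusted p = 0.000717), with KO effects of -2.88 ± 0.17 in BH and -0.59 ± 0.15 in H (adjusted p = 0.0139).

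Rora, ROR alpha, was at 72.5, 67.2 and 66.7 CPM in H-KO and at 116 to 200 CPM in the other 9 libraries, so H-KO alone stood apart. Its interaction was 1.06 ± 0.26 (adjusted p = 0.0463), lost in 9 of the 12 fits without 1 library.

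Of 14 clock output genes tested, 2 were called positive and 1 negative (21.4%, against 3.57% of all tested genes). Dbp (ENSMUSG00000059824, chromosome 7, 45705088 to 45710203), an activator that acts on the D-box, was at 2.86, 7.21 and 8.66 CPM in BH-KO. It was at 56.7, 72.1 and 94.3 CPM in H-KO, 182, 126 and 124 in BH-WT and 109, 92.7 and 133 in H-WT. Its interaction was -3.90 ± 0.46 (adjusted p = 0.00308) and passed in all 12 fits without 1 library. Leo1, a subunit of the PAF1 complex of transcription elongation, was at 38, 26.6 and 24.4 CPM in BH-KO and at 6.55 to 14.1 elsewhere (2.12 ± 0.33, adjusted p = 0.00876). Lonrf3 gave 3.68 ± 0.65 (adjusted p = 0.0168), with 10.3 to 10.8 CPM in BH-KO and 0.577 to 3.84 elsewhere, and was lost in 1 of those fits. Tef fell in both lines, with 115 to 160 CPM in H-KO against 270 to 383 in H-WT and 69.3 to 81 in BH-KO against 285 to 359 in BH-WT, and its interaction did not pass (-0.90 ± 0.24, adjusted p = 0.0629). The interaction of Nfil3, a repressor of D-box genes, was 1.23 ± 0.31 (adjusted p = 0.0506). Usp2 fell in both lines (-2.19 ± 0.28 in H and -2.11 ± 0.28 in BH), and its interaction of 0.08 ± 0.38 did not pass (adjusted p = 0.933). Wee1 (0.02 ± 0.37), Nampt (-0.20 ± 0.23), Hlf (0.44 ± 0.24), Noct (0.79 ± 0.70), Por (-1.44 ± 0.59), Alas1 (-0.32 ± 0.33), Pnpla2 (-0.75 ± 0.20) and Tspan4 (0.16 ± 0.45) did not pass either, with adjusted p-values of 0.0637 for Pnpla2 and 0.195 to 0.985 for the rest.

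**Figure D3:**
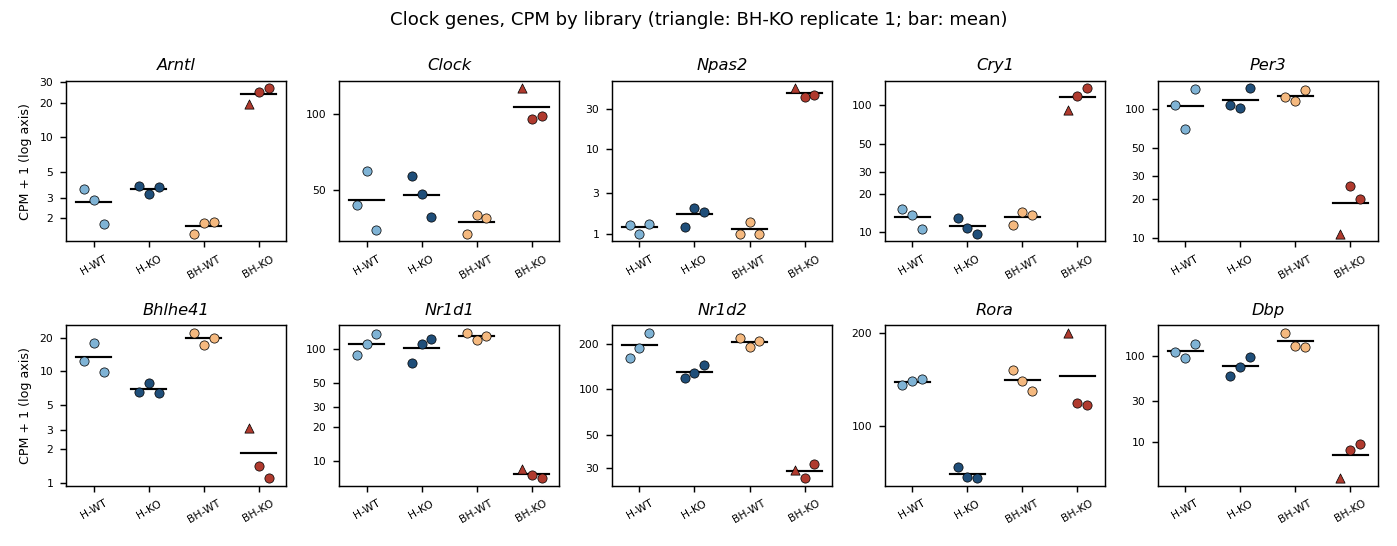
Levels of 10 clock genes are plotted for each of the 12 libraries as CPM + 1 on a log axis, 1 point per library, with a bar at the group mean and a triangle for BH-KO replicate 1. BH-KO lies apart from the other 3 groups for Arntl, Npas2, Cry1, Nr1d1 and Dbp, replicate 1 included, while for Rora H-KO lies below the other 3 groups.

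The promoters of these genes were searched for clock elements, and stretches with a match in 4 called clock genes are shown, so that a reader can see where the elements lie. The windows ran from 250 bases before to 50 after each RefSeq start on GRCm38.p6 (mm10), and 10050 of the tested genes had 1 or more. Only bases before both the RefSeq and the GENCODE start are shown, 5′ to 3′ on the gene's strand, with matches in capitals, while distances are counted from the RefSeq start to the first base of the match. The stretch of Cry1 therefore ends 10 bases and that of Bhlhe41 138 bases before the RefSeq start, and those of Per3 and Leo1 end at it. Cry1 holds an E-box (CACGTG) 60 bases before its RefSeq start, and Bhlhe41 one 153 bases before. Per3 holds D-boxes (TTANGTAA, N being any base) 205 and 158 bases before its start, and Leo1 a RORE core (TAGGTCA) 63 bases before. Lonrf3 holds an E-box 45 bases before its RefSeq start, which lies after its GENCODE start and is not shown.
Cry1, chr10:85185065-85185304, minus strand: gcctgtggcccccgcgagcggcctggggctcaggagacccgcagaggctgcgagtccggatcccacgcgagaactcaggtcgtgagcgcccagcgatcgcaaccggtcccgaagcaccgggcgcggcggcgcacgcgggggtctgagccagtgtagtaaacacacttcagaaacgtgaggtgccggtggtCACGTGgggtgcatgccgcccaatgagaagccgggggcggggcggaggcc
Bhlhe41, chr6:145865559-145865670, minus strand: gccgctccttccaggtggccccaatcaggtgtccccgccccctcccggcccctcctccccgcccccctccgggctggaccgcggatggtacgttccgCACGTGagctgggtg
Per3, chr4:151044666-151044915, minus strand: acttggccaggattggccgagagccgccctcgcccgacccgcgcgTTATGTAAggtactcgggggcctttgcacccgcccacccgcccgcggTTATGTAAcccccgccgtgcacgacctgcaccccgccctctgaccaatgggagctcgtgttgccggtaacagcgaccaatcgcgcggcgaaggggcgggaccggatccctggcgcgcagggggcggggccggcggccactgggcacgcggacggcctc
Leo1, chr9:75441274-75441523, plus strand: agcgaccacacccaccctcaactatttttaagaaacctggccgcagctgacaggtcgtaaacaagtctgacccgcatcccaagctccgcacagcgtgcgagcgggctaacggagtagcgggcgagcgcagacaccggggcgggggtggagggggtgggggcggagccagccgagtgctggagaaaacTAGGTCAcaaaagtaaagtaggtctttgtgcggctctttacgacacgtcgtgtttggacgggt

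The shares of genes with a match were counted. In the tested genes with a window, searched on both strands, 11.6% held the E-box, 1.94% the D-box, 2.55% the RORE core and 0.667% the HNF4 motif CAAAGTCCA. In all 32851 windows of the table the shares were 7.15%, 2.32%, 2.61% and 0.475%. Among the called genes with BH-KO alone high, 5 of 48 with a window held the E-box (10.4%) and 2 the RORE core (4.17%). With BH-KO alone low, 2 of 39 held the E-box (5.13%) and 2 the D-box (5.13%). With H-KO alone low, 6 of 56 held the E-box (10.7%) and 3 the RORE core (5.36%), and with H-KO alone high, 3 of 40 held the E-box (7.5%). These shares rest on 6 genes or fewer each, and the E-box share of each of these classes was below that of the tested genes. The HNF4 motif was in no window of the 4 classes in which a KO group stood apart alone. Arntl has 2 RefSeq starts, and a RORE core lies 30 bases after the more downstream one (chr7:113207534-113207554, plus strand, cagaaagTAGGTCAgggacgg). The windows of Nr1d1, Nr1d2, Dbp, Clock and Rora held none of the 4 motifs. A match is only a description of letters, and none says nothing of binding elsewhere.

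Other genes in which BH-KO alone was high included some of the largest interactions. Ndrg1, a stress- and growth-responsive protein (chromosome 15, 66929318 to 66969640), was at 106, 220 and 166 CPM in BH-KO and at 4.89 to 17.4 in the other 9 libraries (5.22 ± 0.57, adjusted p = 0.00264). Nckap5 was at 7.79, 9.44 and 11.6 CPM in BH-KO and at or below 0.729 elsewhere (5.64 ± 0.87, adjusted p = 0.00876). Tox2, an HMG-box protein, was at 12.9, 12.6 and 11.8 CPM against at most 1.15 elsewhere (4.60 ± 0.78, adjusted p = 0.0127). In these 3 genes the BH-KO libraries were tightly grouped relative to their distance from the rest, and replicate 1 lay with replicates 2 and 3. Ndrg1 and Nckap5 passed in all 12 fits without 1 library, and Tox2 was lost in 1.

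Regulators of glycogen and of glucose entry were among the called metabolic genes. Of 29 genes of glucose and glycogen metabolism, 2 were called positive and 1 negative (10.3%, against 3.57% of all tested genes). Without BH-KO replicate 1, 3 were positive and 6 negative, and the list's median interaction went from 0.14 to -0.37. Ppp1r3c, a glycogen-targeting subunit of protein phosphatase 1, was at 146, 183 and 223 CPM in BH-KO and at 30.4 to 45.1 elsewhere (2.11 ± 0.26, adjusted p = 0.003). Its relative Ppp1r3b rose in both lines, with 223 to 313 CPM in H-KO against 103 to 150 in H-WT and 497 to 621 in BH-KO against 80.3 to 130 in BH-WT, and rose more in BH (1.48 ± 0.31, adjusted p = 0.0313). Slc2a2, the hepatocyte glucose transporter GLUT2, was at 144, 138 and 113 CPM in BH-KO. It was at 390 to 679 CPM in the other 9 libraries, and its interaction was -1.70 ± 0.23 (adjusted p = 0.00474). Ppp1r3c and Slc2a2 passed in all 12 fits without 1 library, and Ppp1r3b was lost in 6.

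Of 23 fat synthesis genes, 3 were called (13%, against 3.57% of all tested genes), all negative. The median interaction of the list was -0.47 against 0.03 over all tested genes. Without BH-KO replicate 1, 3 were called positive and 5 negative, and the list's median was -0.53. The 3 genes called with all 12 libraries differed in the group that set them apart. Thrsp, a regulator of lipogenesis, was at 35.9, 77.6 and 57.2 CPM in BH-KO. It was at 291, 232 and 345 CPM in H-WT, 378, 379 and 612 in H-KO, and 512, 498 and 743 in BH-WT (-4.01 ± 0.43, adjusted p = 0.00204). Fasn, fatty acid synthase, was at 196, 114 and 140 CPM in BH-KO and at 283 to 638 elsewhere (-1.61 ± 0.31, adjusted p = 0.0223). Acaca, acetyl-CoA carboxylase, was instead high in H-KO alone, at 228, 214 and 301 CPM against 69.6 to 103 in the other 9 libraries (-1.36 ± 0.25, adjusted p = 0.0193). Thrsp passed in all 12 fits without 1 library, while Fasn was lost in 5 and Acaca in 2. G6pdx, which supplies NADPH, was also high in H-KO alone (11 to 18.6 CPM against 2.69 to 8.78, interaction -2.11 ± 0.46, adjusted p = 0.0351), and was lost in 9 of those fits.

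Of 27 p53 target genes, 3 were called (11.1%, against 3.57% of all tested genes), all positive. Cdkn1a, the cell cycle inhibitor p21 (chromosome 17, 29090976 to 29100727), was at 1.42, 1.32 and 0.898 CPM in H-WT and 29.2, 23.2 and 18.5 in H-KO. It was at 0.9, 1.31 and 1.03 CPM in BH-WT and 102, 145 and 155 in BH-KO. It rose in both lines, by 4.26 ± 0.26 in H and 6.93 ± 0.27 in BH, and the difference of 2.67 ± 0.42 passed (adjusted p = 0.00923), in all 12 fits without 1 library too. Trp53inp1 was at 140, 187 and 249 CPM in BH-KO and at 62.6 to 91.9 elsewhere (1.48 ± 0.25, adjusted p = 0.0127). Ei24 fell slightly in H and rose slightly in BH (0.79 ± 0.18, adjusted p = 0.0418), a call lost in 11 of the 12 fits. The median interaction of the p53 list was 0.12. Of 42 cell cycle genes, with a median of 0.58, edgeR called 0, as did DESeq2 and limma-voom, and 5 had an unadjusted p under 0.05. Without BH-KO replicate 1, edgeR called 2.

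Genes that hepatocytes need HNF4A to express were among those in which H-KO alone was low. Of 53 genes of a list of HNF4A-dependent genes, 4 were called (7.55%, against 3.57% of all tested genes) and all were positive. The list's median interaction was 1.10. Its median KO effect was -2.15 in H, with 35 genes that fell and 0 that rose, and -0.89 in BH, with 7 that fell and 0 that rose. Without BH-KO replicate 1 the median interaction was 0.41, with 5 genes called positive and 3 negative. The members named next were called with and without that library.

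Cldn1, a tight junction protein, was at 6.64, 7.27 and 5.1 CPM in H-KO and at 32.4, 63.6 and 45.4 in H-WT. It was at 32.7, 36.4 and 42.1 CPM in BH-WT and 139, 52.7 and 41.6 in BH-KO, where replicate 1 was the highest. Its interaction was 3.96 ± 0.62 (adjusted p = 0.0123), and 3.25 without BH-KO replicate 1 (adjusted p = 0.000619). Apoh, a plasma glycoprotein, was at 534, 420 and 466 CPM in H-KO, and at 3146, 1393 and 1110 in BH-KO, where replicates 2 and 3 lay between H-KO and the WT libraries (2157 to 2820). Its interaction was 2.0 ± 0.47 (adjusted p = 0.0425), and 1.42 without BH-KO replicate 1 (adjusted p = 0.00599), though 9 of the other fits without 1 library lost it.

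Pericentral genes, which hepatocytes near the central vein express, were called most often of the metabolic lists. Of 24 tested, 6 were called (25%, against 3.57% of all tested genes) and all were positive, with a median interaction of 1.21. Without BH-KO replicate 1 the counts were 9 positive and 1 negative and the median 0.95. In H, 15 of the 24 fell and 0 rose, and in BH 3 fell and 3 rose. Cyp2e1 (chromosome 7, 140763739 to 140774987), which oxidises ethanol and other small molecules, was at 1495, 1084 and 1835 CPM in H-KO. It was at 8002, 6915 and 10871 CPM in H-WT, 11690, 5737 and 9173 in BH-WT, and 10691, 8238 and 9958 in BH-KO. The 3 BH-KO libraries thus lay within the WT range and the H-KO libraries below it. The interaction of Cyp2e1 was 2.67 ± 0.45 (adjusted p = 0.0127), with -2.55 ± 0.33 in H and 0.12 ± 0.31 in BH (adjusted p = 0.806), and it passed in all 12 fits without 1 library.

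Cyp1a2, a caffeine-oxidising P450, was at 79.6, 73.8 and 114 CPM in H-KO and at 614, 329 and 368 in BH-KO, with 335 to 963 in the WT groups (2.71 ± 0.47, adjusted p = 0.0149). Gulo, the last enzyme of vitamin C synthesis, was at 78.9, 75.3 and 96.6 CPM in H-KO and at 241 to 388 in the other 9 libraries (1.88 ± 0.31, adjusted p = 0.0115). Axin2, a target of Wnt signalling, moved in both lines. It was at 7.93, 5.77 and 9.06 CPM in H-KO, 13.8, 9.44 and 13.2 in BH-WT, 11.2, 11.2 and 16.8 in H-WT and 20, 29.4 and 34.6 in BH-KO (2.0 ± 0.36, adjusted p = 0.0181). The remaining called members of the list were named after their values were seen. Lgr5, a receptor of the Wnt pathway, was high in BH-KO alone, at 18.3, 31.1 and 31.7 CPM against 5.65 to 15.9 elsewhere (2.51 ± 0.46, adjusted p = 0.0184). Slc1a2, a glutamate transporter, was low in H-KO alone (80.7 to 94.6 CPM against 219 to 432, interaction 1.87 ± 0.38, adjusted p = 0.0249). Of 16 periportal genes, Pigr alone was called (6.25%, against 3.57% of all tested genes). Pigr was at 662 to 769 CPM in H-KO and 1390 to 4305 elsewhere (2.16 ± 0.45, adjusted p = 0.0289). The median KO effect of the periportal list was -0.81 in H, where 6 fell and 2 rose. In BH it was -0.31, where 4 fell and 1 rose. Gulo passed in all 12 fits without 1 library, whereas Cyp1a2 and Axin2 were each lost in 1, Lgr5 in 4, Slc1a2 in 5 and Pigr in 7.

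**Figure D4:**
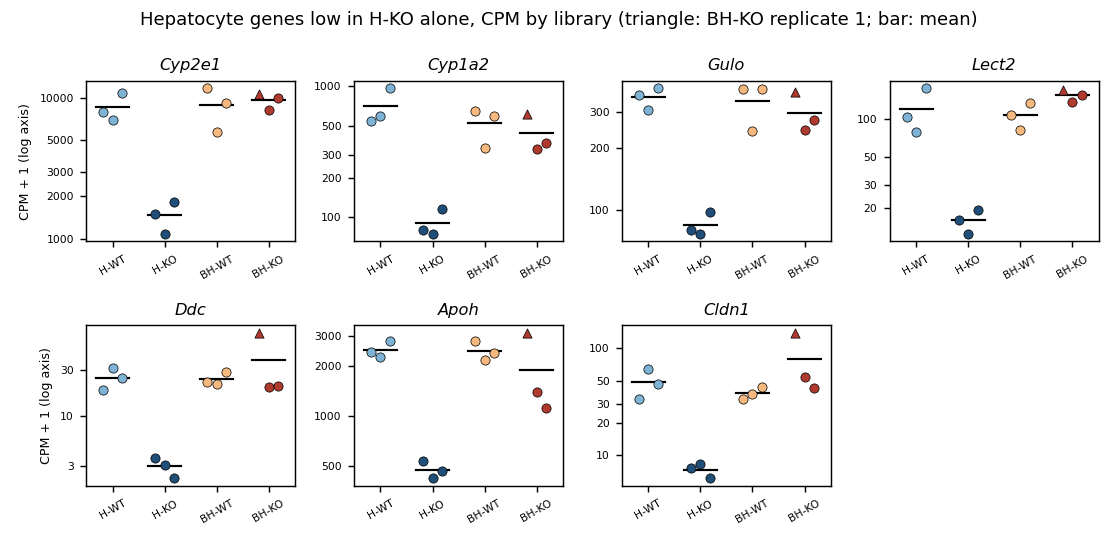
Levels of 7 hepatocyte-expressed genes in which H-KO alone was low are plotted by library as CPM + 1 on a log axis, with a bar at the group mean and a triangle for BH-KO replicate 1. The H-KO points lie below all other libraries in each panel, while BH-KO replicates 2 and 3 lie at or near the WT level for Cyp2e1 and Lect2 and between the WT and H-KO levels for Apoh.

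The largest interactions with H-KO alone low were those of Slc30a10, Cldn1, Ddc and Lect2. Slc30a10, a manganese exporter, was at 4.82, 3.23 and 5.21 CPM in H-KO and at 23.1 to 153 elsewhere (4.31 ± 0.77, adjusted p = 0.0209). Ddc, aromatic amino acid decarboxylase, was at 2.68, 2.08 and 1.25 CPM in H-KO and at 17.6 to 72.6 elsewhere (4.24 ± 0.76, adjusted p = 0.0204). In both, BH-KO replicate 1 was the highest of all libraries (153 and 72.6 CPM), and without it the interactions were 3.38 (adjusted p = 0.00116) and 3.32 (adjusted p = 0.000597). Lect2, a secreted hepatocyte protein, was at 14.9, 11.4 and 18.1 CPM in H-KO. It was at 102, 78.4 and 173 CPM in H-WT, 106, 80.2 and 132 in BH-WT, and 169, 135 and 154 in BH-KO (3.51 ± 0.41, adjusted p = 0.00274), with 3.44 without BH-KO replicate 1. Lect2 passed in all 12 fits without 1 library, Slc30a10 was lost in 6 and Ddc in 4.

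In the metabolic lists not described above the share called ran from 0 to 9.52%, against 3.57% of all tested genes. Of 44 P450 and drug metabolism genes, 3 were called positive (Cyp2e1, Cyp1a2 and Cyp4f15) and Cyp2b9 negative (9.09% in all), and the median interaction fell from 1.57 to 0.38 without BH-KO replicate 1. Cyp2b9 was at 179, 90.8 and 72.8 CPM in BH-KO and at 316 to 678 elsewhere, the highest being the H-WT library with the female pattern (-2.14 ± 0.51, adjusted p = 0.0456, and lost in 10 of the 12 fits without 1 library). Cyp4f15 was lost in 10 too and Cyp1a2 in 1. Of 25 cholesterol synthesis genes, Pmvk alone was called (4%; 1.73 ± 0.40, adjusted p = 0.0415, lost in 8 of the fits), while the list's median was 1.06, or 0.73 without BH-KO replicate 1. The list's median KO effect was -1.73 in H, where 20 fell, and -0.60 in BH, where 8 fell. Of 42 genes of the urea cycle or of amino acid breakdown, Ftcd (1.98 ± 0.42, adjusted p = 0.0325), Slc25a15 (1.11 ± 0.27, adjusted p = 0.0456) and Agxt (1.70 ± 0.42, adjusted p = 0.049) were positive, and Asl, argininosuccinate lyase, negative (-0.93 ± 0.22, adjusted p = 0.0417), 9.52% of the list. Without 1 library, Asl was lost in 11 of the 12 fits, Agxt in 10, Slc25a15 in 9 and Ftcd in 8. Of the 4, Agxt alone was lost without BH-KO replicate 1 (adjusted p = 0.0524). Of 32 fatty acid oxidation, 21 bile acid and 29 acute phase genes, edgeR called 0 in each list, with 5, 6 and 7 at an unadjusted p under 0.05. DESeq2 called 3, 3 and 4 of them, limma-voom 1, 1 and 0, and edgeR without BH-KO replicate 1 called 5, 2 and 5.

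Of 25 liver-enriched transcription factors, Foxa2 and Onecut1 were called (8%, against 3.57% of all tested genes), both positive. Foxa2 was at 24.7, 26.3 and 24.8 CPM in H-KO against 32.8 to 48.5 in H-WT, and at 50.9, 36.2 and 34.3 in BH-KO against 27.3 to 29.9 in BH-WT (1.19 ± 0.24, adjusted p = 0.0241). Onecut1, HNF6, was at 7.73 to 9.21 CPM in H-KO against 19.8 to 35.8 in H-WT, while BH-WT (10.4 to 14.2) and BH-KO (24.9, 10.8 and 10.5) overlapped (2.03 ± 0.47, adjusted p = 0.0417). In both genes the WT groups of the lines did not overlap. Foxa2 was lost in 7 and Onecut1 in 8 of the 12 fits without 1 library.

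The leading genes high in H-KO alone were at low levels in the other 3 groups. Rasd1, a Ras-like protein induced by glucocorticoids, was at 54, 76.1 and 42.5 CPM in H-KO and at or below 6.12 in the other 9 libraries (-5.25 ± 1.17, adjusted p = 0.0418). Cntn2, a neural adhesion protein, was at 8.89, 18.1 and 8.75 CPM in H-KO and at 0.132 to 5.24 elsewhere (-6.98 ± 1.13, adjusted p = 0.0116). Ptges, a prostaglandin E synthase, was at 17.6, 21.9 and 19.4 CPM against 0.171 to 2.25 (-5.54 ± 0.85, adjusted p = 0.00876). Ptges and Cntn2 passed in all 12 fits without 1 library, and Rasd1 was lost in 10. Psat1, an enzyme of serine synthesis, was at 27.3, 17.8 and 12 CPM in H-KO and 0.396 to 3.54 elsewhere (-3.79 ± 0.86, adjusted p = 0.0415). Psat1 and Trib3 were the 2 genes called, both negative, of 30 genes of the unfolded protein and integrated stress responses. That is 6.67% of the list, against 3.57% of all tested genes. Krt79, Igdcc4 and Rab44 followed the same pattern, with H-KO at 19 to 43.3, 8.54 to 23.5 and 8.03 to 9.46 CPM and all other libraries at or below 9.83, 3.45 and 0.786 CPM. Trib3 and Krt79 were lost in 10 of the 12 fits without 1 library, Psat1 in 9, Igdcc4 in 7 and Rab44 in 5.

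Interferon-response genes were called negative in 8 of 32, against a background of 1.49% of all tested genes called negative, and in 0 positive. The list's median interaction was -0.92, from 0.29 in H and -0.78 in BH, and without BH-KO replicate 1 it was -1.16 with 12 negative and 0 positive. The 8 differed in which group set them apart. Usp18, which damps interferon signalling, was at 53.1, 52.4 and 56.7 CPM in H-KO against 12.7, 15.4 and 14.1 in H-WT. It was at 14.9, 12.3 and 13.5 CPM in BH-WT and 14.6, 25.4 and 20.1 in BH-KO (-1.37 ± 0.25, adjusted p = 0.0177). Ifi44 (19, 11.2 and 19.8 CPM in H-KO, 2.28 to 6.99 elsewhere, -2.39 ± 0.50, adjusted p = 0.0295) and the antiviral GTPase Mx1 (5.78, 5.08 and 4.27 CPM in H-KO, 0.609 to 2.56 elsewhere, -2.45 ± 0.52, adjusted p = 0.0324) were likewise high in H-KO alone.

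Gbp3, a guanylate-binding protein, was low in BH-KO, at 12.7, 4.67 and 3.76 CPM against 11 to 24.5 elsewhere, with replicate 1 inside the range of the other groups (-2.27 ± 0.51, adjusted p = 0.0415). Gbp2, Oas3, Oasl2 and Zbp1, named after their values were seen, had interactions of -2.18 ± 0.52, -3.37 ± 0.78, -2.16 ± 0.52 and -0.83 ± 0.20. Usp18 was lost in 2 of the 12 fits without 1 library, Ifi44 in 8, Mx1 and Oas3 in 9, Oasl2 and Zbp1 in 10, and Gbp3 and Gbp2 in 11. Macrophage markers also had a negative median interaction, while their median KO effect in H was -0.21, against 0.29 for the interferon list. Their summed level was 456, 1875 and 1094 CPM in BH-WT and 676, 430 and 501 in BH-KO, against 773, 390 and 179 in H-WT and 385, 459 and 473 in H-KO. The 24 macrophage markers tested had a median interaction of -2.04. Of these, edgeR and limma-voom called 0 and DESeq2 2, and 6 had an unadjusted p under 0.05, with Cd5l at -3.21 ± 1.05 (adjusted p = 0.127) and Clec4f at -2.61 ± 0.91 (adjusted p = 0.148), and 1 marker of the list was at 0 in each group. Their part in the interferon result was not tested, and fewer cells of a type cannot be told apart from less RNA per cell in these bulk samples.

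Chaperone genes were called positive in 5 of 19 (26.3%, against 3.57% of all tested genes called) and negative in 0. The list's median interaction was 0.47. Hsp90aa1, the inducible HSP90, was at 187, 158 and 159 CPM in H-WT and 117, 107 and 104 in H-KO. It was at 84.5, 92.3 and 112 CPM in BH-WT and 157, 154 and 172 in BH-KO. The KO groups thus crossed, with H-KO near the BH-WT level and BH-KO near the H-WT level. It fell in H (-0.62 ± 0.13, adjusted p = 0.00487) and rose in BH (0.74 ± 0.13, adjusted p = 0.00297), an interaction of 1.36 ± 0.18 (adjusted p = 0.00474) that passed in all 12 fits without 1 library. Chordc1, an HSP90 co-chaperone, did the same (1.09 ± 0.22, adjusted p = 0.0241). Hsph1 (2.12 ± 0.42, adjusted p = 0.0276), Dnajb4 (0.92 ± 0.21, adjusted p = 0.0415) and Hspe1 (1.04 ± 0.25, adjusted p = 0.0423, named after its values were seen) fell in H and did not pass in BH. Hsph1 was at 59.4 to 73.8 CPM in H-WT and 21.2 to 42.9 in BH-WT, so the WT groups did not overlap. Chordc1 was lost in 7 of the 12 fits, Hsph1 in 5, Dnajb4 in 8 and Hspe1 in 10.

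**Figure D5:**
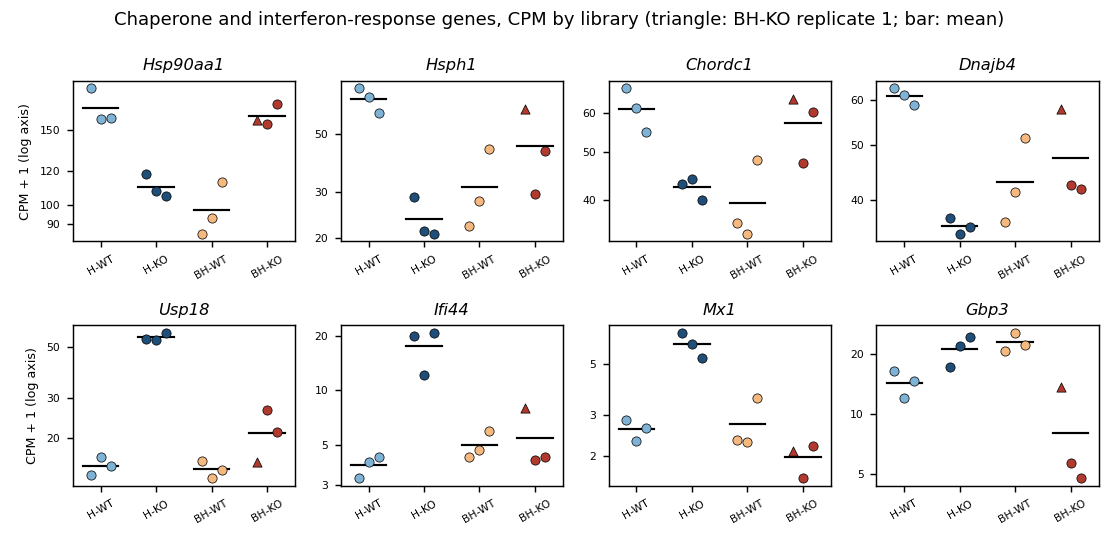
Levels of 4 chaperone genes (top) and 4 interferon-response genes (bottom) are plotted by library as CPM + 1 on a log axis, with a bar at the group mean and a triangle for BH-KO replicate 1. The chaperones are lower in BH-WT than in H-WT, and Usp18, Ifi44 and Mx1 are highest in the 3 H-KO libraries.

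The 66 genes with KO effects of opposite sign, and no group that stood apart alone, held some of the smallest p-values. Effects of opposite sign add up in the interaction, so small p-values follow in part from how the class was defined. Hectd2os (chromosome 19, 36614052 to 36705641), an antisense transcript of the Hectd2 locus, was at 0.643, 0.346 and 0.312 CPM in H-KO against 5.83, 8.45 and 5.69 in H-WT. It was at 47.8, 66.4 and 66.8 CPM in BH-KO and 3.15, 2.62 and 5.13 in BH-WT. It fell in H (-3.89 ± 0.36) and rose in BH (4.07 ± 0.27), an interaction of 7.96 ± 0.44 (adjusted p = 1.12e-05). Where Hectd2os overlaps other genes, its reads cannot be told apart from theirs, since strand was not stated. Pnrc1, a nuclear receptor coregulator, was at 15.9, 24.6 and 24.4 CPM in H-KO and at 301, 154 and 173 in BH-KO, on either side of the WT groups at 58.9 to 81.5 (3.03 ± 0.34, adjusted p = 0.00253).

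In the opposite sense, Eepd1, an endonuclease-like protein, was at 78.7, 112 and 100 CPM in H-KO against 35, 47.5 and 38.3 in H-WT. It was at 19.4, 20.1 and 18.9 CPM in BH-KO and 78.2, 61.3 and 74.9 in BH-WT, so the WT groups also did not overlap (-3.14 ± 0.22, adjusted p = 5.46e-05). Cyp46a1, cholesterol 24-hydroxylase, was at 21.1, 22.8 and 38.2 CPM in H-KO and 2.07, 6.19 and 3.58 in BH-KO, around WT levels of 6.6 to 14.3 (-3.15 ± 0.51, adjusted p = 0.0115). Nrg4, a secreted growth factor, was at 67.6, 45 and 50.5 CPM in H-KO and 2.38, 11.3 and 8.75 in BH-KO, with 14.7 to 21.9 in the WT groups (-2.70 ± 0.54, adjusted p = 0.029). Hectd2os, Pnrc1, Eepd1 and Cyp46a1 passed in all 12 fits without 1 library, and Nrg4 was lost in 8.

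In the 21 genes with KO effects of the same sign, and no group that stood apart alone, the interaction was a difference of degree. Asap2, an ARF GTPase-activating protein, rose from 4.55, 6.07 and 5.39 to 16.6, 13.5 and 15.2 CPM in H and from 5.25, 4.46 and 7.01 to 46.4, 49.6 and 47 CPM in BH (1.61 ± 0.24, adjusted p = 0.00792). Mcm10, a replication factor, fell from 118, 120 and 71.1 to 22, 16.8 and 18.2 CPM in H and from 110, 87.6 and 107 to 6.52, 5.18 and 4.89 in BH (-1.77 ± 0.29, adjusted p = 0.0115). In these genes and in Cdkn1a and Pcsk4 (-1.75 ± 0.32, adjusted p = 0.0181) the change was larger in BH, and all 4 passed in the 12 fits without 1 library. Abat, GABA transaminase, fell more in H, from 333, 503 and 551 to 38.4, 30.1 and 40.3 CPM, than in BH, from 306, 255 and 382 to 205, 86.2 and 102 (2.41 ± 0.44, adjusted p = 0.0193), a call lost in 5 of those fits. Tmeff2 rose to 38.2 to 40.3 CPM in H-KO and to 3.34 to 8.37 in BH-KO, from at most 1.03 in the WT groups (-3.81 ± 0.74, adjusted p = 0.0223), and was lost in 7 of the fits.

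Of the 148 genes that met no single description, the largest interactions included Gas2 and Txnip. Gas2, a cytoskeletal protein, was at 5.08 to 7.6 CPM in H-KO, 66.4 to 97.3 in H-WT, 32.4 to 49.9 in BH-WT and 13.7 to 36.9 in BH-KO (2.74 ± 0.47, adjusted p = 0.017). Txnip, an inhibitor of thioredoxin and glucose uptake, was at 375, 539 and 480 CPM in H-KO and 57.9 to 177 in the WT groups, and at 24.5, 152 and 93.5 in BH-KO (-3.17 ± 0.73, adjusted p = 0.0456). Without BH-KO replicate 1, the low library, Txnip gave -2.72 (adjusted p = 0.00482). Of the 12 fits without 1 library, 10 lost Txnip and 1 lost Gas2. Trib3, a pseudokinase of the stress response, gave -3.37 ± 0.80 (adjusted p = 0.0499, lost in 10 of 12 fits), and Pla2g7, a lipoprotein-bound phospholipase, -4.38 ± 1.01 (adjusted p = 0.0463, lost in 11).

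In 9 of the called genes a WT group alone stood apart. Acvr1b, an activin receptor, was at 33.8, 36.2 and 30.1 CPM in BH-WT and 13 to 22 in the other 9 libraries (-1.09 ± 0.20, adjusted p = 0.0181). Fam213b was at 59.2, 49.6 and 33.4 CPM in H-WT and at 5.4 to 11.9 elsewhere (1.78 ± 0.33, adjusted p = 0.0193). Pkd2, polycystin-2, was at 6.26, 10 and 7.49 CPM in H-WT and 22.5 to 48.9 elsewhere (-1.34 ± 0.32, adjusted p = 0.0456). Zfp605 was low in BH-WT at 2.1, 3.01 and 3.08 CPM (1.99 ± 0.45, adjusted p = 0.0388), Gstm4 (1.39 ± 0.30, adjusted p = 0.0363) and Tcf24 (4.73 ± 1.03, adjusted p = 0.037) were high in H-WT, and Cyb561 (-1.95 ± 0.43, adjusted p = 0.0378) was low there. Tcf24 was at 3.98, 10.6 and 25 CPM in H-WT, the highest in the library with the female pattern. Without that library, H-WT replicate 3, Tcf24 (adjusted p = 0.0562), Cyb561 (0.0612), Gstm4 (0.0748) and Pkd2 (0.0973) did not pass. Over the 12 fits without 1 library, Pkd2 was lost in 10, Zfp605 and Tcf24 in 9, Cyb561 and Gstm4 in 8, Fam213b in 6 and Acvr1b in 4.

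Genes close to the engineered loci were counted: Arntl, whose conditional allele the BH line alone carried, and Hnf4a and Alb, altered in both lines. Within 5 Mb of Arntl on chromosome 7, 2 of 50 tested genes were called (4%, St5 and Arl6ip1, both positive), within 5 Mb of Hnf4a on chromosome 2, 4 of 81 (4.94%, Top1, Tox2, Oser1 and Slc13a3, all positive), and within 5 Mb of Alb on chromosome 5, 3 of 67 (4.48%, Afm, Gm2602 and Sowahb, all positive), names given after their values were seen. Over all tested genes the share was 3.57%. Within 10 Mb it was 1.53% of 131 genes near Arntl, 4.12% of 170 near Hnf4a and 4.65% of 86 near Alb. In that wider window 1 call near Hnf4a and 1 near Alb were negative. Of the 9 genes within 5 Mb, Slc13a3 passed in all 12 fits without 1 library, and Tox2 and Afm were lost in 1 each. St5 was lost in 4, Top1 in 7, Arl6ip1 and Sowahb in 9, and Oser1 and Gm2602 in 10.

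Marker lists of other liver cells held 0 or 1 called gene each, against 3.57% of all tested genes. Of 22 endothelial and 4 neutrophil markers, 0 were called by edgeR, DESeq2 or limma-voom and 0 had an unadjusted p under 0.05. Reln was called alone of 23 stellate cell and matrix genes (4.35%; 1.01 ± 0.24, adjusted p = 0.0456), and Pkhd1 alone of 18 bile duct genes (5.56%; 1.40 ± 0.27, adjusted p = 0.0223). These shares are near that of all tested genes, and Reln was lost in 11 and Pkhd1 in 4 of the 12 fits without 1 library. Reln, a marker of stellate cells, was at 63.2 to 77.5 CPM in H-WT and at 27.8 to 52.3 in the other groups. Pkhd1, fibrocystin, was at 27.3, 26 and 28.6 CPM in BH-KO and 10.6 to 20.6 elsewhere. Bile duct marker sums were 471, 843 and 1064 CPM in BH-KO, 612 to 723 in H-KO and 472 to 629 in the WT groups, and their part in the Pkhd1 result was not tested. Lists of fetal (12 tested), sex chromosome (5), lymphoid (4), erythroid (7), pancreas and gut (2) and adipose genes (3) had 0 calls by edgeR, with 4, 1, 0, 1, 1 and 0 at an unadjusted p under 0.05 and 2, 0, 0, 1, 1 and 0 called by DESeq2. Of 28 NRF2 and glutathione genes, Gstm4 was positive and G6pdx negative (7.14%), and of 44 sex-biased genes Cyp2b9 alone was called (2.27%).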

How the data were processed

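Per the labels, total RNA was extracted with Trizol and sequenced on Illumina instruments. The authors deposited a table of whole-number read counts per gene without normalization. Alignment used STAR 2.6 and mm10, per the submitters' processing notes. The sources used here give no read counter, annotation or strand setting. Groups follow the labels, and the 3 libraries of a group are biological replicates per the series design.

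Counts of the 12 libraries were fitted in edgeR 4.0.16 (R 4.3.3) with 1 mean per group, TMM factors (0.8118 to 1.286), filterByExpr at a minimum count of 10 and 8 residual degrees of freedom. The 3 contrasts were tested by the quasi-likelihood method (glmQLFTest, robust, two-sided). A count of 0 allows up to 3 counts, 0.282 to 0.513 CPM, counting error only. Coordinates are GENCODE M21, counted from 1. Named genes were the largest interactions by log2(CPM + 1) per class with at least 5 CPM in 1 group, up to 4 called members of each of 35 lists by smallest p, core clock genes, Hnf4a and Arntl. Not all eligible genes are described, and some results are not reported here. Members, lists and rules were chosen with earlier results of these data known. The test was checked on simulated counts. Alternatives were other scalings and filters, DESeq2 1.42.0, limma-voom (limma 3.58.1), the fit of all 18 libraries, each line fitted alone, a replicate block, each library left out and other class settings. Same-numbered libraries did not deviate together (18 pairs, correlations of -0.189 to 0.151).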

Additional observations from a re-analysis of the deposited data

Results flagged for a closer look

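The KO effects of the lines differed in 490 genes by the test of the difference itself (the interaction contrast in edgeR). In 66 of them no group stood apart alone and the KO effect passed in both lines with opposite signs. Every tested gene of that kind was called, as effects of opposite sign add up in the interaction. The 5 genes of that kind named for the size of their interaction were Hectd2os (7.96), Pnrc1 (3.03), Eepd1 (-3.14), Cyp46a1 (-3.15) and Nrg4 (-2.70), as log2 interactions. In each of these 5, the 3 H-KO libraries lay on 1 side of all 6 WT libraries and the 3 BH-KO libraries on the other. That was not so in Hsp90aa1, where H-KO (104 to 117 CPM) and BH-KO (154 to 172) lay within the WT libraries (84.5 to 187), nor in Chordc1, where both also lay within. Without BH-KO replicate 1, the 5 interactions were still called. Nrg4 then moved to the class with H-KO alone high, and the others kept their class. Of the 66 genes, 54 were still called in the same class without that library. Groups of 3 libraries were not examined for outlying samples by a critical value.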

How the results depend on the processing

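The count of 490 genes (285 positive, 205 negative) became 1138 (632 and 506) with the DESeq2 test, 850 (529 and 321) with all 18 libraries in the fit, and 928 (471 and 457) with neither BH-KO replicate 1 nor H-WT replicate 3. Leaving out 1 library gave 115 to 1041 genes in all, 65 to 560 positive and 50 to 481 negative. Replicate numbers are shared between groups but do not pair the libraries: 2 of 18 same-numbered pairs correlated above 0.1 and 1 of 12 libraries correlated best with its own number, and with a replicate block 271 genes passed (161 and 110). KO effects passed in 1619 to 5804 genes in BH and 2849 to 5497 in H without 1 library, in 6217 in BH without the pair, and in 1094 with BH fitted alone. Upper-quartile scaling gave 48.9% of calls positive against 58.2%. Of 92 named genes called, 28 were called under every alternative and none of 1932 alternative values changed sign.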

Other observations

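Some called genes lay beside each other in the genome, and these sets were chosen after their values were seen. On mm10 chromosome 19, Hectd2 (36554639 to 36621135, plus strand), a ubiquitin ligase gene, Hectd2os (36614052 to 36705641, minus strand) and Ppp1r3c (36731731 to 36736653, minus strand), the glycogen-targeting subunit described above, were all called with a positive interaction. Hectd2 was at 10.2, 16.2 and 12.5 CPM in BH-KO and at 2.05 to 5.15 in the other 9 libraries (2.76 ± 0.42, adjusted p = 0.00792 in edgeR's quasi-likelihood test). Hectd2 and Hectd2os overlap on opposite strands, so their reads may not be told apart there. The next gene tested in that direction, Tnks2, a tankyrase gene (36834232 to 36893477), was at 73.9 to 105 CPM in all 12 libraries (0.24 ± 0.17, adjusted p = 0.437).

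On chromosome 10, Avpr1a (122448499 to 122453452), the V1a vasopressin receptor, was at 124, 233 and 214 CPM in BH-KO. It was at 23, 15.4 and 25.3 CPM in H-WT, 40.7, 34.3 and 33.7 in H-KO and 29.3, 19.3 and 21.2 in BH-WT (2.26 ± 0.36, adjusted p = 0.0109 in edgeR's quasi-likelihood test). The unnamed gene model AC160029.1 (122386892 to 122435033) began upstream of it on the same strand. AC160029.1 was at 77.4, 32.5 and 21.4 CPM in BH-KO, 0.346 to 1.29 in H-KO and 6.26 to 11.1 in the WT libraries of both lines (5.89 ± 0.74, adjusted p = 0.0044). BH-KO was the highest group for both, while in H-KO Avpr1a lay above H-WT and AC160029.1 below it. The neighbouring gene model AC160029.3 spans Avpr1a on the other strand, so part of its reads may be shared.

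Among the class I-like histocompatibility genes of chromosome 17, H2-Q7 (35439155 to 35443773) was at 16.5, 17.4 and 22.6 CPM in BH-KO and at 43.6 to 87.2 in the other 9 libraries (-1.96 ± 0.22, adjusted p = 0.00253 in edgeR's quasi-likelihood test). H2-Q6 (35424850 to 35430055) was at 16, 22.3 and 31 CPM in BH-KO, 42.8, 29.6 and 35.2 in BH-WT and 61.6 to 79.6 in H-KO (-1.29 ± 0.29, adjusted p = 0.0413), and it was lost in 10 of the 12 fits without 1 library. These genes are close copies of each other, so how the counting split their reads is uncertain.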
